A study of Mus musculus with 4 samples.

Results

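The VEGF and angiopoietin axis was followed through wire injury of the mouse carotid artery as 10 genes fixed by name, 10 of the 31053 genes that the files list. The VEGF ligands were Vegfa (ENSMUSG00000023951), Vegfb (ENSMUSG00000024962), Vegfc (ENSMUSG00000031520) and Vegfd (ENSMUSG00000031380), and their receptors were Kdr (ENSMUSG00000062960), Flt1 (ENSMUSG00000029648) and the co-receptor Nrp1 (ENSMUSG00000025810). The angiopoietins were Angpt1 (ENSMUSG00000022309) and Angpt2 (ENSMUSG00000031465), with their receptor Tek (ENSMUSG00000006386). All 10 were seen in the libraries. As background, Vegfa drives endothelial growth, migration and permeability through Kdr, whereas Flt1 binds Vegfa, Vegfb and placental growth factor with high affinity and can act as a decoy. Vegfc and Vegfd act mainly on lymphatic endothelium through Flt4. Angpt1 from cells around the vessel activates Tek and keeps endothelium quiet, and Angpt2 opposes it in most settings.

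Each time point was represented by 1 droplet library of dissociated carotid arteries from male C57BL/6 mice, 11 weeks old before injury, with several vessels pooled and thrombosed vessels left out. Uninjured vessels were labelled day 0, and injured left carotids were taken 3, 7 and 14 days after a wire had been passed through the lumen, which strips the endothelium. The labels name no genetic or drug treatment in any group. With 1 library a day, a difference between days could not be told apart from a difference between libraries, no p-value was computed, and every interval below is a 95% interval that covers counting error only. After filtering, 281, 1405, 2693 and 1029 cells remained on days 0, 3, 7 and 14, out of 2672722 to 27973418 unique molecular identifiers (UMIs, each counting 1 captured transcript) per library as deposited. Some barcodes were shared between libraries, 104 of day 3 as shallow copies of deep day 0 cells, 48 of day 0 as copies of day 3 cells, and 62 of day 14 as copies of day 7 cells, and these shallow copies were removed.

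Cells were clustered over the 4 libraries without the genes described here, and clusters were named by resemblance to fixed markers. Levels are CPM, the UMIs of a gene per 1000000 UMIs of a class in a library, and each gene was compared with itself across classes and days. Fibroblast-like cells numbered 206, 99, 159 and 468 on the 4 days and smooth muscle-like cells 11, 113, 89 and 77. Endothelial-like cells were few, at 6, 38, 56 and 17, and shallow, with median UMI counts of 876 to 1706. Their markers summed to 12900, 3463, 4486 and 6092 CPM, with Pecam1 seen at each time point and of 6 lymphatic markers 1 was seen on each day, Lyve1 at 66.8, 171 and 22.7 CPM on days 0, 3 and 7 and Pdpn at 64.4 CPM on day 14, with Prox1 at 0. Monocyte/macrophage-like cells numbered 3, 500, 839 and 163, and unnamed cells made up 13.2%, 8.33%, 17.1% and 10.2%. The stricter naming rule left 3 clusters nearest to fibroblasts unnamed (9.61%, 0.996%, 1.97% and 7.48% of the cells of days 0, 3, 7 and 14), 5 nearest to macrophages (0%, 0.854%, 13.1% and 1.36%) and 2 nearest to smooth muscle (1.78%, 4.56%, 0.928% and 0.389%). The remaining unnamed cells lay in C15, a cluster of 98 cycling cells. Cells of over 30000 UMIs gave 0%, 86.7%, 77.4% and 17.5% of fibroblast-like UMIs on the 4 days, and 0%, 86.6%, 73.4% and 37.6% of smooth muscle-like UMIs. A gene counted as 2-fold higher or lower between days when the ratio of CPM was at least 2 or at most 0.5 on at least 20 UMIs over both days. A count of 0 was taken as 3 UMIs in a ratio, which is then a bound, and the level that a count of 0 allows is given as 3 UMIs, a one-sided limit that lies below the upper end of the 95% interval. Where that bound pointed away from the counts, the ratio was set to 1 and had no direction, as for Vegfd in smooth muscle-like cells of day 3 (35 UMIs against 0 in the 11 cells of day 0).

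The sequences upstream of Kdr, Flt1 and Tek are shown as those of 3 receptors that were higher in endothelial-like cells of day 7 than of day 3. For Kdr this rested on 1 UMI on day 3. Nrp1 was also higher (2.01), and its window, which held neither motif searched for below, is not shown. RefSeq's promoter table (GRCm38.p6) matched 8 of the 10 genes, all but Angpt1 and Angpt2. The 250 bases before each start that it lists were searched on both strands, and a match is in capitals. The motifs were ACGTG (or CACGT), the core bound by hypoxia-inducible factors, and CCGGAA (or TTCCGG), a core bound by ETS factors of endothelium. Over all 32851 windows of this length, 16.6% held the former and 12.0% the latter.
Kdr (chr5:75978456-75978705, minus strand): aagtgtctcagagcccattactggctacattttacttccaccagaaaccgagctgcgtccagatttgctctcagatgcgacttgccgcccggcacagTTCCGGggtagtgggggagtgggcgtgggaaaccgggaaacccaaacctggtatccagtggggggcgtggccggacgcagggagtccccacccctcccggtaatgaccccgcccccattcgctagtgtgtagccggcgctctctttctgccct
Flt1 (chr5:147726012-147726261, minus strand): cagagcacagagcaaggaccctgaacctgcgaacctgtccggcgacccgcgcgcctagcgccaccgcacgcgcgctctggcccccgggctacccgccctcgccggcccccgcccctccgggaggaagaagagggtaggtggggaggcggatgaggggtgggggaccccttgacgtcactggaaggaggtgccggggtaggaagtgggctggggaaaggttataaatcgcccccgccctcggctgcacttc
Tek (chr4:94739039-94739288, plus strand): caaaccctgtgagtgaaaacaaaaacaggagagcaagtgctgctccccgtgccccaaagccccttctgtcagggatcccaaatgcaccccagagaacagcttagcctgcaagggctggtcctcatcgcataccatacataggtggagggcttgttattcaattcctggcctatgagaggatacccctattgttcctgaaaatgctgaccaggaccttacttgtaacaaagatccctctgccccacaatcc
Kdr held 1 TTCCGG, and the windows of Flt1 and Tek held neither motif. For Vegfa, a gene that hypoxia induces in many tissues, the table lists 2 windows on the minus strand (not shown). The upstream one (chr17:46032378-46032627) held neither motif. The other (chr17:46025164-46025413) held 1 hypoxia core, but it lies downstream of the first start and so is not the sequence before the gene. A match describes letters only.

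To determine which cells carried the main ligand, Vegfa was measured in each class. In fibroblast-like cells, Vegfa stood at 28.2 CPM on day 0 (21.6 to 36.1, 62 UMIs), 43.8 on day 3 (37.6 to 50.8), 24.3 on day 7 (20.0 to 29.2) and 44.6 on day 14 (40.3 to 49.3). Days 3 and 14 lay above days 0 and 7 with no overlap of the intervals, at 1.56 (1.16 to 2.11) and 1.58 (1.21 to 2.11) times the day 0 level. Smooth muscle-like cells held another order, at 61.1 CPM (22.4 to 133, on 6 UMIs), 17.5 (13.7 to 22.1), 39.6 (32.3 to 48.0) and 16.5 (10.3 to 24.9) on days 0, 3, 7 and 14. The ratios to day 0 were 0.287 (0.126 to 0.808) on day 3 and 0.269 (0.106 to 0.812) on day 14, both 2-fold lower but resting on 11 reference cells, of which 2 held a Vegfa UMI. Against the better counted day 3, Vegfa was 2.26 times higher on day 7 (1.65 to 3.09). The smooth muscle markers of the class summed to 43837, 17042, 12609 and 43797 CPM on the 4 days and fibroblast markers to 2087, 7510.3, 11126 and 5707 CPM, and their part in the Vegfa level was not tested.

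Among immune cells, neutrophil-like cells held the highest Vegfa level of all classes on both days on which they were found, at 189 CPM on day 3 (157 to 225, in 54 of 233 cells) and 297 on day 7 (244 to 359, in 37 of 119 cells), a ratio of 1.58 (1.21 to 2.05). All 13 macrophage markers were seen in them, summing to 2879.95 and 3503 CPM, and 9 of 10 fibroblast markers, summing to 654 and 1219 CPM. Their part in the level was not tested. Monocyte/macrophage-like cells stood at 53.4 CPM (47.1 to 60.4), 91.2 (85.0 to 97.7) and 27.4 (19.4 to 37.6) on days 3, 7 and 14. The middle day was thus the highest, and day 14 was 0.30 times day 7 (0.211 to 0.416). Neutrophil markers had the same order in this class, with 7, 7 and 3 of 8 seen, Ly6g at 0 on each of these days and sums of 83.4, 187 and 36.8 CPM, and their part in the Vegfa level was not tested. Of the 255 UMIs on day 3, 56 came from 1 cell, and of the 38 on day 14, 16 came from 1 cell, without which the levels were 41.8 and 16.1 CPM. NK cell-like cells stood at 29.0 CPM on day 3 (12.5 to 57.1, 8 UMIs) and 115 on day 7 (94.9 to 139), 3.98 times as much (1.95 to 9.45), and at 78.5 CPM on day 14 (39.2 to 140.4, 11 UMIs). On day 7, the macrophage markers summed to 826 CPM in these NK cell-like cells, against 21158 CPM in monocyte/macrophage-like cells, and fibroblast markers to 510.3 CPM, and their part in the Vegfa level was not tested. T cell-like cells, which served as a low reference, held Vegfa in 14 of 370 cells on day 7, at 10.9 CPM (7.04 to 16.1).

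The order of the classes on day 7 was neutrophil-like, endothelial-like, NK cell-like and monocyte/macrophage-like, then smooth muscle-like, fibroblast-like, dendritic-like and T cell-like cells. Each of the first 3 steps between neighbours was larger than counting error. The few erythroid-like cells, at 74.1 CPM on 4 UMIs, lay between monocyte/macrophage-like and smooth muscle-like cells and were apart from neither. Smooth muscle-like cells were apart from fibroblast-like cells, and fibroblast-like cells at 24.3 CPM (20.0 to 29.2) lay above dendritic-like cells at 10.9 CPM (8.10 to 14.5), whose level did not differ from that of T cell-like cells beyond counting error. B cell-like cells held 1 UMI and could not be placed. On day 3 neutrophil-like cells were the highest and apart from the next class. Monocyte/macrophage-like cells lay above fibroblast-like cells by 1.22 times (1.00 to 1.49), but without the 1 cell that gave 56 UMIs they stood at 41.8 CPM, below the 43.8 CPM of fibroblast-like cells. On day 14 the order began with NK cell-like and fibroblast-like cells, which were not apart.

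**Figure D1:**
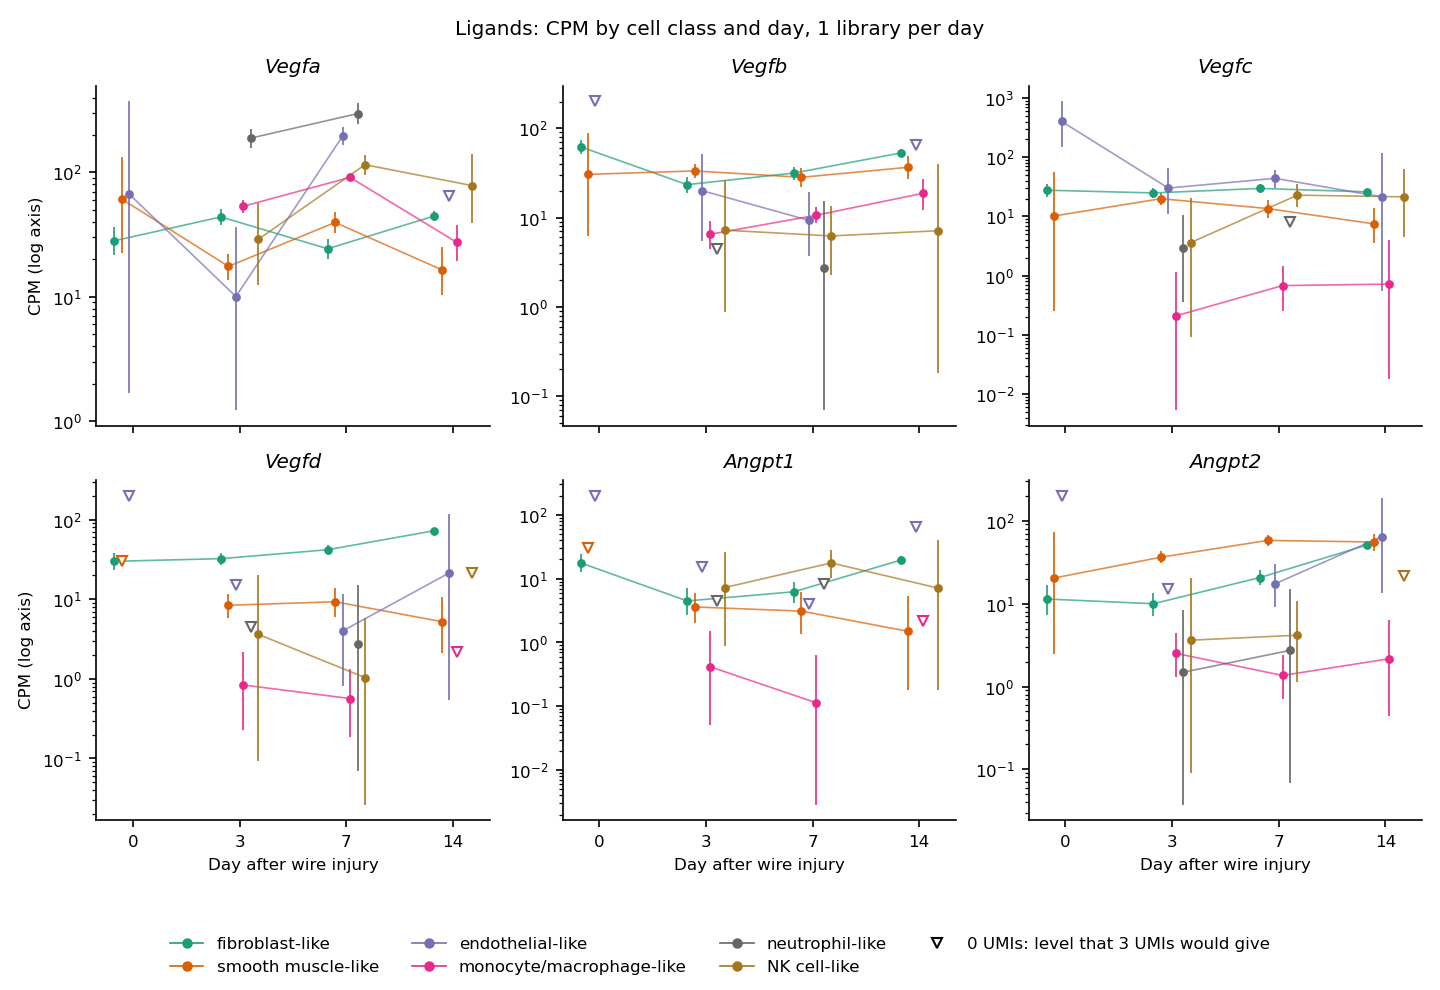
CPM of the 6 ligands (vertical log axis) by day (horizontal axis) in 6 cell classes with at least 5 cells, 1 library per day; points are levels, bars 95% Poisson intervals, and open triangles mark the level that 3 UMIs would give where none was seen. Neutrophil-like cells are highest for Vegfa at 189 and 297 CPM, and Angpt2 and Vegfd of fibroblast-like cells are highest on day 14, at 50.8 and 72.8 CPM.

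Vegfa and Nrp1 were compared between clusters C0 and C2 of the monocyte/macrophage-like class. These held 116 and 6 of the 255 Vegfa UMIs of the class on day 3, and 12 and 126 of its 450 Nrp1 UMIs. The other clusters of the class are not described, among them C6, which held 255 of its 500 cells on day 3 and kept its name because all 13 macrophage markers were detected, although its top 10 genes by fold over all other cells held none of them and 1 platelet marker. Cluster C0, led by Plac8, Klra2 and Chil3, which mark recruited monocytes, held Vegfa at 166 CPM on day 3 (137 to 199), 169 on day 7 (156 to 183) and 29.3 on day 14 (9.52 to 68.4, 5 UMIs). Cluster C2, led by Ms4a7 and the complement genes C1qa and C1qc of mature macrophages, held 6.07 CPM (2.23 to 13.2, 6 UMIs), 22.7 (18.1 to 28.2) and 29.0 (20.0 to 40.7). Vegfa was thus 27.3 times higher in C0 than in C2 on day 3 (12.2 to 76.0) and 7.45 times on day 7 (5.91 to 9.50), whereas on day 14 they did not differ beyond counting error (1.01, 0.308 to 2.60), although 16 of the 33 UMIs of C2 on that day came from 1 cell.

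Nrp1, which also serves as a semaphorin receptor on immune cells, ran the other way. In C0 it stood at 17.2 CPM (8.86 to 30.0), 23.9 (19.2 to 29.5) and 35.2 (12.9 to 76.6) on days 3, 7 and 14, and in C2 at 127 (106 to 152), 87.8 (78.4 to 98.0) and 164 (141 to 189). C2 was higher than C0 on each of these days, by 7.43 times (4.11 to 14.8), 3.67 times (2.89 to 4.69) and 4.65 times (2.1 to 12.8). The clusters took unequal numbers of cells by day, with 87, 411 and 18 cells in C0 and 78, 274 and 124 in C2. On day 14, 33 of the 38 Vegfa UMIs of the class lay in C2.

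**Figure D2:**
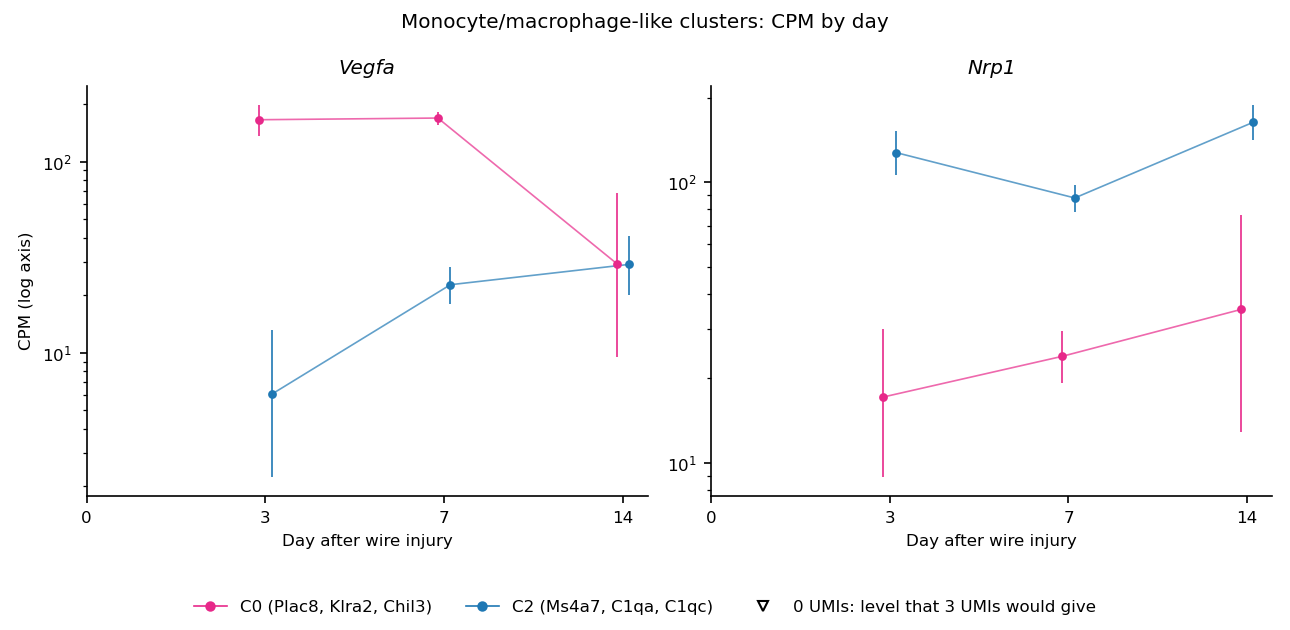
CPM of Vegfa and Nrp1 (vertical log axes) by day in monocyte/macrophage-like clusters C0 and C2 on days with at least 5 cells, with 95% Poisson intervals. C0 lies above C2 for Vegfa on days 3 and 7 (166 and 169 against 6.07 and 22.7 CPM) and below it for Nrp1 on each day.

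Vegfb, a ligand of Flt1, was compared across days in fibroblast-like, smooth muscle-like and monocyte/macrophage-like cells. In fibroblast-like cells it stood at 62.3 CPM on day 0 (52.3 to 73.6), 23.4 on day 3 (18.9 to 28.7), 31.6 on day 7 (26.7 to 37.2) and 53.0 on day 14 (48.3 to 58.1). Days 3 and 7 were low, at 0.376 (0.286 to 0.493) and 0.508 (0.400 to 0.646) times day 0. Day 3 was also lower than day 0 within cluster C1 alone, with 61.4 CPM on day 0 and 24.4 on day 3 (ratio 0.397, 0.256 to 0.599). Vegfb of smooth muscle-like cells lay between 28.3 and 36.7 CPM on all 4 days, with overlapping intervals. In monocyte/macrophage-like cells it stood at 6.49 CPM on day 3 (4.41 to 9.22), 10.7 on day 7 and 18.7 on day 14 (12.2 to 27.5), a ratio of 2.89 for day 14 (1.65 to 5.02). The clusters of this class differed in number by day, with 255, 45 and 2 cells in C6. Their part in the Vegfb ratio was not tested.

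Vegfc stayed level in fibroblast-like cells, at 27.7, 24.9, 29.7 and 26.0 CPM on days 0, 3, 7 and 14, with ratios to day 0 of 0.899 (0.647 to 1.26), 1.07 (0.787 to 1.47) and 0.938 (0.704 to 1.27). Smooth muscle-like cells held 19.9 CPM on day 3 (15.9 to 24.7), 13.6 on day 7 and 7.48 on day 14 (3.59 to 13.8), so that day 14 was 0.375 times day 3 (0.173 to 0.725). From day 3 to day 14, smooth muscle markers of the class went from 17042 to 43797 CPM and fibroblast markers from 7510 to 5707 CPM. Their part in the Vegfc level was not tested. NK cell-like cells of day 7 held 22.9 CPM (14.3 to 34.6), in 15 of 157 cells, against 0.871 CPM in T cell-like cells of that library. The 401 CPM of endothelial-like cells on day 0 were 6 UMIs of 1 cell. On days 3 and 7 the class was highest, at 30.1 CPM (11.0 to 65.5, 6 UMIs) and 44.0 CPM (30.3 to 61.8, in 10 of 56 cells). On neither day was it apart from fibroblast-like cells. On day 14 it stood at 21.5 CPM (1 UMI).

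Vegfd, the other lymphatic ligand, came mostly from fibroblast-like cells, which gave 100%, 74.3%, 81.9% and 98.2% of its 66, 175, 238 and 653 UMIs on days 0, 3, 7 and 14. Its level there was 30.0 CPM (23.2 to 38.2), 32.4 (27.0 to 38.5), 41.9 (36.3 to 48.3) and 72.8 (67.3 to 78.6). Day 14 lay above all other days, at 2.43 times day 0 (1.88 to 3.18). On day 0, 20 of the 66 UMIs came from 1 cell, and without it the level was 21.1 CPM. Smooth muscle-like cells held 8.41, 9.31 and 5.24 CPM on days 3, 7 and 14 and no UMI on day 0, which at that depth allows up to 30.5 CPM.

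The receptors were then compared in endothelial-like cells, where they are known to act. Day 3 served as the reference, because day 0 held 6 such cells with 14961 UMIs in all. Kdr, VEGF receptor 2 and the main signalling receptor for Vegfa, had no UMI on day 0 (3 UMIs would be 200.5 CPM, and the 95% interval reaches 247), and stood at 5.02 CPM on day 3 (0.127 to 28.0, 1 UMI), 72.0 on day 7 (54.1 to 93.9, 54 UMIs) and 129 on day 14 (47.2 to 280.1, 6 UMIs). The day 7 level was 14.3 times that of day 3, with a wide interval (2.47 to 577). Of the 54 UMIs, 24 came from 1 cell, without which the level was 43.5 CPM.

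Flt1, VEGF receptor 1, stood at 200.5 CPM on day 0 (41.4 to 586, 3 UMIs of 1 cell), 80.3 on day 3 (45.9 to 130.4), 259.9 on day 7 (225 to 299) and 536 on day 14 (347 to 792). Days 7 and 14 were 3.24 (1.94 to 5.77) and 6.68 (3.43 to 13.4) times day 3, with no overlap of the day 3 interval. On day 14, 14 of the 25 UMIs came from 1 of 17 cells, and without it the level was 299.9 CPM. Tek, the angiopoietin receptor, stood at 468 CPM (188 to 964, 7 UMIs), 75.3 (42.1 to 124), 175 (146 to 207) and 236 (118 to 422) on the 4 days. Day 3 was the lowest, and days 7 and 14 were 2.32 (1.36 to 4.26) and 3.13 (1.30 to 7.30) times as high. Nrp1 followed with 200.5 CPM (3 UMIs), 90.3 (53.5 to 143), 181 (152 to 214) and 236 (118 to 422), at 2.01 (1.22 to 3.49) and 2.61 (1.11 to 5.84) times day 3.

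Endothelial-like cells also held the ligand. Vegfa had 2 UMIs in 1 of 38 cells on day 3 (10.0 CPM, 1.22 to 36.3) and 147 UMIs in 19 of 56 cells on day 7 (196 CPM, 165 to 230.2), a ratio of 19.5 (5.31 to 163). No UMI was seen in 17 cells on day 14, where 3 UMIs would have been 64.4 CPM, so that day 14 was at least 3.04-fold lower than day 7. These sums were carried by few cells. Over 30000 UMIs were held by 2 cells of day 3 and 7 of day 7, which gave 70.3% and 71.7% of the UMIs of the class. In the 49 shallower cells of day 7, Vegfa stood at 188 CPM (135 to 257), Flt1 at 391 (311 to 485), Nrp1 at 301 (232 to 385), Tek at 330 (257 to 417) and Kdr at 61.2 (32.6 to 105). The 36 shallower cells of day 3 held 59086 UMIs in all, with 2 UMIs each of Flt1 and Tek, 3 of Nrp1 and none of Vegfa or Kdr. Flt1, Tek and Nrp1 were higher on day 7 than on day 3 in both depth groups apart from Nrp1 and Tek of the deep cells, whose intervals overlapped (134 against 107 CPM, and 113 against 92.7 CPM). On day 14, macrophage markers summed to 4955 CPM in the endothelial-like class, 10 of 13 of them seen with Ccr2, Ly6c2 and Mrc1 at 0, against 0 to 176 CPM on the other days and 24893 CPM in monocyte/macrophage-like cells. Fibroblast markers in the class summed to 802, 662, 1513 and 1373 CPM on days 0, 3, 7 and 14, and smooth muscle markers to 267, 1169, 934 and 644 CPM. With each library clustered on its own, 7 of the 38 cells of day 3, the reference, were named smooth muscle-like. The median mitochondrial share of the class was 0%, 0.319%, 3.82% and 0.228% of UMIs. The part of these in the receptor and Vegfa levels was not tested. Fewer endothelial cells in the vessel and fewer recovered by digestion could not be told apart.

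**Figure D3:**
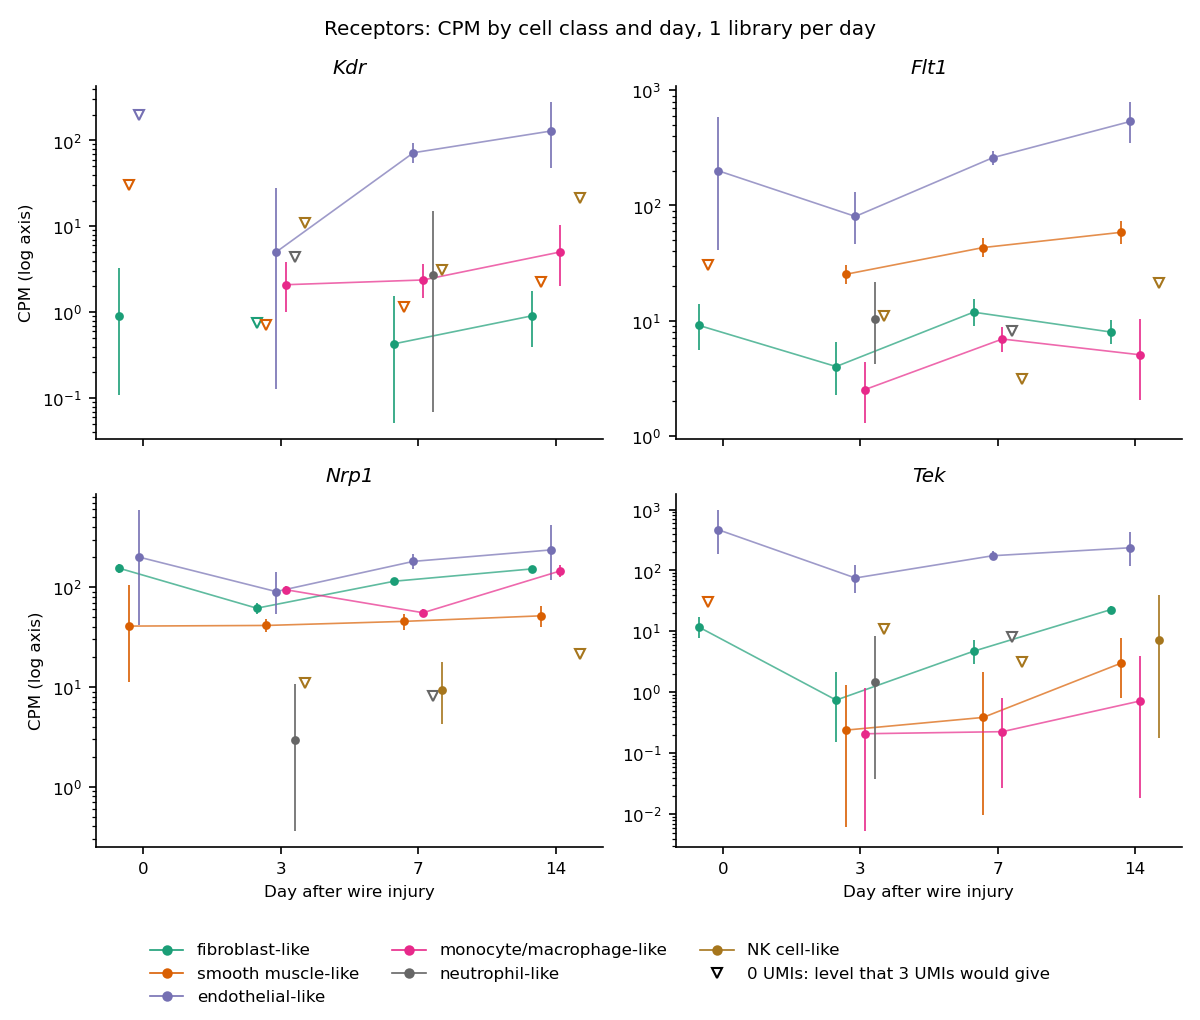
CPM of the 4 receptors (vertical log axes) by day in 6 cell classes with at least 5 cells, 1 library per day; bars are 95% Poisson intervals and open triangles the level that 3 UMIs would give where none was seen. Endothelial-like cells lie above the other classes for Flt1 and Tek on days 3, 7 and 14, and Flt1 of smooth muscle-like cells stands at 25.2, 43.1 and 58.3 CPM on those days.

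Outside the endothelial-like class, Flt1 was found in smooth muscle-like cells, at 25.2 CPM on day 3 (20.6 to 30.5), 43.1 on day 7 (35.4 to 51.9) and 58.3 on day 14 (46.1 to 72.8). The level was higher on each later day, at 1.71 (1.30 to 2.25) and 2.31 (1.70 to 3.13) times that of day 3, and 49 of 113, 41 of 89 and 42 of 77 cells held a UMI. In T cell-like cells, 2 of 370 held one on day 7 and none of 96 on day 14, at median depths of 5543 and 5062 UMIs against 17128 and 14885 UMIs in smooth muscle-like cells. No Flt1 UMI was seen in the 11 smooth muscle-like cells of day 0, which allows up to 30.5 CPM, so day 14 was at least 1.91-fold higher. Endothelial markers summed to 81.4, 33.2, 57.4 and 77.0 CPM in smooth muscle-like cells of days 0, 3, 7 and 14, and pericyte markers to 733, 354, 485 and 684 CPM, and their part in the Flt1 level was not tested. In fibroblast-like cells Flt1 stood at 9.09, 3.99, 11.8 and 7.95 CPM on the 4 days, and it lay mainly in cluster C1, with none in cluster C17. Within C1, day 3 and day 0 did not differ beyond counting error (9.76 against 11.2 CPM, ratio 0.874, 0.389 to 1.88). The ratio over the whole class was 0.439 (0.212 to 0.891), and it turned to the other direction without cells of over 30000 UMIs.

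Nrp1, the member with the most UMIs, was seen in most classes. Fibroblast-like cells held 154 CPM on day 0 (139 to 172), 61.5 on day 3 (54.1 to 69.7), 115 on day 7 (105 to 125) and 152 on day 14 (144 to 160.5). Day 3 was the lowest with no overlap, at 0.398 times day 0 (0.337 to 0.471), and day 14 did not differ from day 0 beyond counting error (0.985, 0.874 to 1.11). Smooth muscle-like cells stayed between 40.7 and 51.6 CPM. Monocyte/macrophage-like cells had 94.3 CPM on day 3 (85.8 to 103), 55.4 on day 7 (50.6 to 60.5) and 146 on day 14 (126 to 167), which is the reverse of their Vegfa. T cell-like cells stood at 28.0, 45.4, 53.1 and 87.3 CPM on the 4 days, and on day 7 the Icos-led cluster C13 held 87.7 CPM against 17.9 CPM in the Ccl5-led cluster C10, 4.91 times as much (2.99 to 8.44).

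Kdr was also counted in dendritic-like cells, at 7.64 CPM on day 3 (4.73 to 11.7, in 14 of 173 cells), 5.58 on day 7 (3.61 to 8.24, in 19 of 362 cells) and 2.79 on day 14 (1 UMI). T cell-like cells of day 7 held Kdr in 0 of 370 cells. On day 3, 12 of the 21 UMIs lay in the 25 cells of cluster C16, led by the migration receptor Ccr7, at 36.6 CPM (18.9 to 63.9), 9.19 times the level of the Cd209a-led cluster C3 (3.56 to 24.7). On day 7 the 61 cells of C16 held no Kdr UMI.

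The angiopoietins were read mainly from the mesenchymal classes. Angpt1 of fibroblast-like cells stood at 17.7 CPM on day 0 (12.6 to 24.2), 4.48 on day 3 (2.66 to 7.09), 6.24 on day 7 (4.18 to 8.96) and 19.5 on day 14 (16.7 to 22.7). Days 3 and 7 were low without overlap, at 0.253 (0.136 to 0.453) and 0.352 (0.210 to 0.584) times day 0. Both ratios reversed under separate clustering of the libraries, which left the fibroblast-like name to 30 of the 206 cells of day 0. Of the others, 69 were then named smooth muscle-like and 107 were unnamed, so the identity of this reference class depended on the clustering. Smooth muscle-like cells held 3.6, 3.1 and 1.5 CPM on days 3, 7 and 14, and no UMI on day 0, which allows up to 30.5 CPM. NK cell-like cells of day 7 held Angpt1 at 17.7 CPM (10.3 to 28.3), in 12 of 157 cells, against 1 of 370 T cell-like cells of that library.

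Angpt2 moved differently. In fibroblast-like cells it stood at 11.4 CPM on day 0 (7.35 to 16.8), 9.96 on day 3 (7.12 to 13.6), 20.6 on day 7 (16.7 to 25.2) and 50.8 on day 14 (46.2 to 55.7). Day 14 lay above all other days, at 4.47 times day 0 (2.99 to 6.98) and 2.46 times day 7 (1.97 to 3.10), and the gene was found in 17 of 206, 15 of 99, 33 of 159 and 141 of 468 cells. After thinning to 1000 UMIs, 2 of 201, 1 of 99, 6 of 159 and 23 of 465 cells held one. Smooth muscle-like cells held 20.4 CPM on day 0 (2.47 to 73.6, 2 UMIs), 36.3 on day 3 (30.7 to 42.6), 57.8 on day 7 (48.9 to 67.9) and 55.4 on day 14 (43.5 to 69.5). The days 7 and 14 levels were 2.84 (0.772 to 23.7) and 2.72 (0.726 to 22.9) times day 0, which did not exceed counting error, and 1.59 (1.26 to 2.01) and 1.53 (1.14 to 2.03) times day 3, which did. In endothelial-like cells, often named as its main source, Angpt2 had 0, 0, 13 and 3 UMIs on the 4 days, and 11 of the 13 lay in 1 cell. These were 17.3 CPM on day 7 (9.22 to 29.6) and 64.4 CPM on day 14 (13.3 to 188). On day 14 the class was the highest, but not apart from smooth muscle-like cells (ratio 1.16, 0.234 to 3.53). Where no UMI was seen, the interval reached 247 CPM on day 0 and 18.5 CPM on day 3.

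The fibroblast-like class was made of 4 clusters whose numbers differed by day, and the members were not spread evenly over them. C1, led by Rbp4, Fmo2 and Comp, held 180, 54, 96 and 183 cells on days 0, 3, 7 and 14. All 10 fibroblast markers were detected in it, and 3 were among its top 10 genes by fold over the lower quartile of clusters. By fold over all other cells, however, its top 10 held none of them and 1 pericyte marker, Ndufa4l2, and the fibroblast name was kept because the whole list was detected. C17, led by Igfbp5, Pi16 and Pcsk6, held 26, 1, 5 and 45. C9, led by C1qtnf3, Angptl1 and Cilp, held 33 and 240 cells of days 7 and 14, and C18, led by Saa3 and Cxcl5, which belong to acute phase and chemokine responses, and Prg4, held 44 and 25 cells of days 3 and 7. Tek was concentrated in C17, at 61.1 CPM on day 0 (39.5 to 90.1), 107 on day 7 (63.2 to 168) and 175 on day 14 (148 to 206). On day 14 this was 17.4 times the level of C9 (12.6 to 24.4) and at least 169-fold higher than in C1, where no UMI was seen. Over the class, Tek stood at 11.8, 0.747, 4.73 and 22.8 CPM, and its low value on day 3, 0.0632 times day 0 (0.0123 to 0.206), coincided with the 1 cell of C17 in that library. Within C17, day 14 was 2.87 times day 0 (1.87 to 4.58). Of the 10 endothelial markers, 4 were seen in C17, with Cdh5, Cldn5, Vwf, Emcn, Esam and Robo4 at 0 and a sum of 58.1 CPM, and T cell-like cells of day 14 held Tek in 0 of 96 cells. Over the whole class the endothelial markers summed to 109.5, 37.9, 66.2 and 60.1 CPM on the 4 days, and their part in the Tek level was not tested.

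Angpt2 was highest in C1. There it stood at 13.4 CPM on day 0 (8.58 to 19.9), 13 on day 3 (7.44 to 21.1), 32.8 on day 7 (26.1 to 40.6) and 114 on day 14 (102 to 127), so that within this cluster day 14 was 8.52 times day 0 (5.62 to 13.5). On day 14 it was 4.99 times higher in C1 than in C9 (4.02 to 6.22) and 48.8 times higher than in C17 (13.4 to 405), which had 2 UMIs. Pericyte markers summed to 1147 CPM in C1, 405 in C9 and 145 in C17, and their part in the Angpt2 level was not tested. Angpt1 in C1 went from 21.2 CPM on day 0 to 3.25 on day 3 (0.153, 0.0397 to 0.426) and 9.02 on day 14 (0.425, 0.248 to 0.719). Its class level on day 14 rested on C9, at 27.6 CPM (23.2 to 32.6). Angpt1 was thus still low within C1 on day 14, when the class as a whole stood at 19.5 CPM. Vegfd was highest in C9, at 95.7 CPM on day 7 and 92.7 on day 14, and C17 held 4.89 CPM of it on day 0 (2 UMIs) and 77.1 on day 14 (59.7 to 98.2), 15.8 times as much (4.2 to 133). Vegfc was nearly absent from C17 on day 14, at 1.17 CPM (1 UMI) against 28.4 CPM in C1, a ratio of 0.0411 (0.00103 to 0.235). Vegfa stood at 78.2 CPM in C17 on day 0 (53.5 to 110.3) and 16.7 in C1 (11.3 to 23.9).

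**Figure D4:**
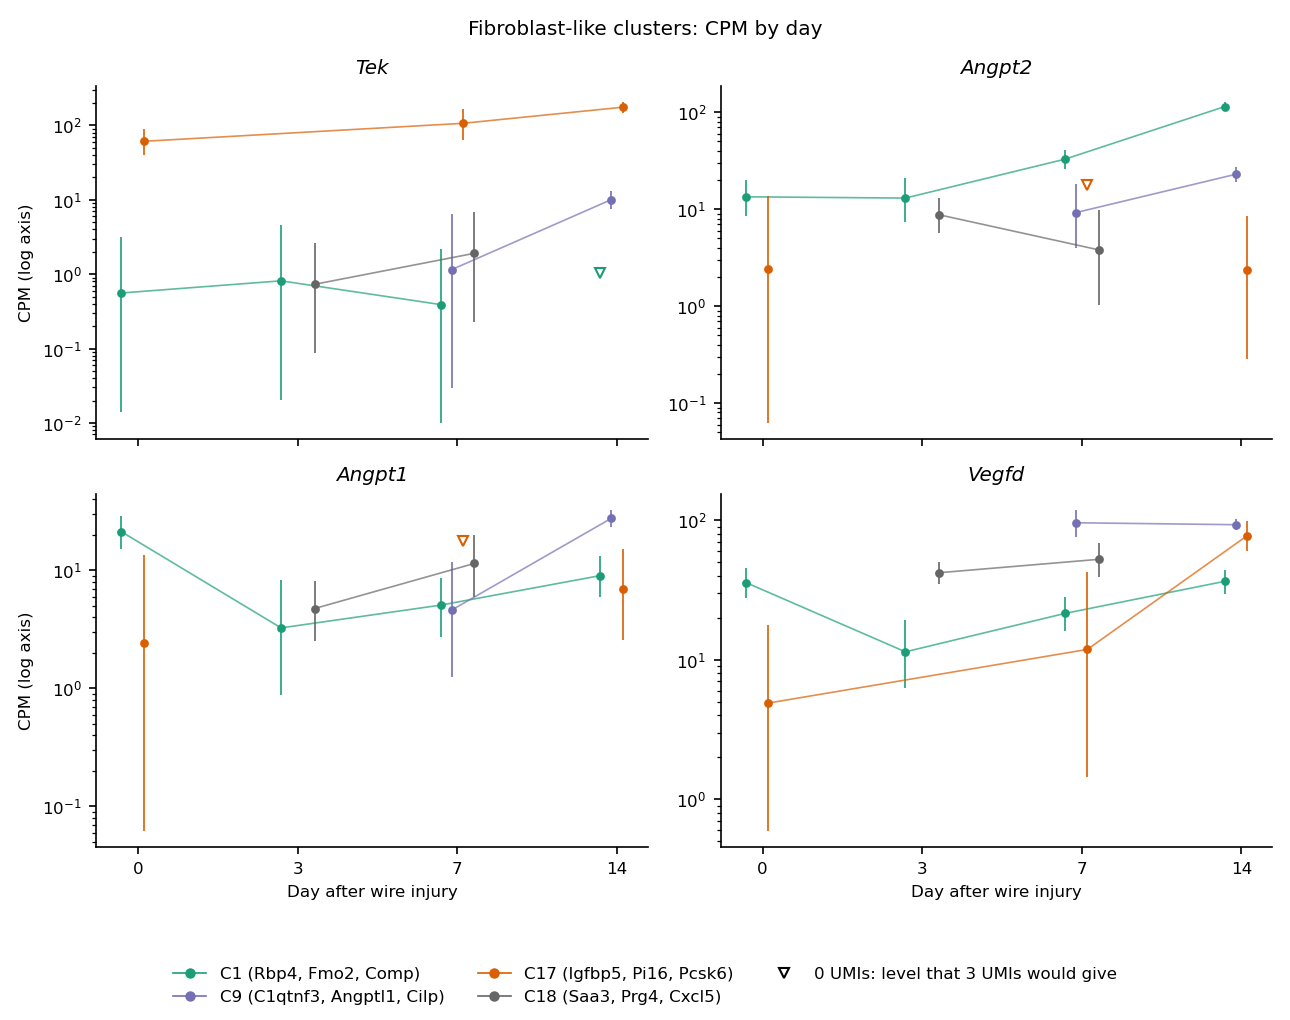
CPM of Tek, Angpt2, Angpt1 and Vegfd (vertical log axes) by day in 4 fibroblast-like clusters with at least 5 cells, with 95% Poisson intervals; open triangles mark 0 UMIs. Tek is highest in C17 (61.1, 107 and 175 CPM on days 0, 7 and 14) and Angpt2 is highest in C1 on day 14, at 114 CPM.

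The calls of the 10 members were read against all genes tested in the same comparison. In fibroblast-like cells of day 3 over day 0, 0 of 9 tested members were 2-fold higher (8.66% of all genes) and 5 were lower (11.0%), namely Tek, Angpt1, Vegfb, Nrp1 and Flt1, with a median log2 ratio of -1.19 against -0.12 over all genes. On day 7 none was higher (10.1%) and 2 of 9, Angpt1 and Tek, were lower (8.42%), with a median of -0.21 against -0.06. On day 14, 2 of 9, Angpt2 and Vegfd, were higher (8.81%) and none was lower (4.72%), with 0.14 against -0.02. The class's own fibroblast markers summed to 42783, 27655, 37380 and 49239 CPM on days 0, 3, 7 and 14, and monocyte/macrophage markers to 40.0, 444, 266 and 191 CPM, with 6, 13, 13 and 12 of 13 seen, and their part in these ratios was not tested. In smooth muscle-like cells of day 3, 0 of 7 were higher (12.3%) and 1, Vegfa, was lower (16.8%), and on day 7, 1 of 7, Angpt2, was higher (13.4%) and 0 lower (15.0%). On day 14, Angpt2 was higher and Vegfa lower of 5 tested (10.7% and 11.2%). The medians were 0.02, 0.16 and 0.34 against 0 over all genes. The medians over all genes, and those of the members on days 3 and 7, include genes set to a ratio of 1. For these genes the 11 cells of day 0 held no UMI. The counts of members called in this class were near the background.

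In endothelial-like cells of day 7 over day 3, 5 of the 6 members that reached 20 UMIs were higher (16.2%), with a median of 1.45 against 0.09 over all genes, and 0 were lower (8.12%). Vegfa and Kdr, with 2 and 1 UMIs on day 3, reached 20 through their level on day 7 and so could not have been tested without differing. On day 14 over day 3, the 3 that reached 20 UMIs, Flt1, Tek and Nrp1, were higher (11.8%) and 0 lower (33.1%), with 1.65 against -0.49. Flt1 and Tek, with 16 and 15 UMIs on day 3, would not have reached 20 at an unchanged level in the smaller sum of day 14. Nothing is read from these counts and medians against the background, and the same filter acts on genes of the lists that had few UMIs on the reference day. In monocyte/macrophage-like cells, 1 of 6, Flt1, was higher on day 7 (5.98%) and 0 lower (4.32%), and 1 of 3, Vegfb, was higher on day 14 (5.94%) and 0 lower (9.73%), with medians of 0.45 and 0.63 against -0.12 and -0.15. Flt1 in that class stood at 2.51, 6.91 and 5.04 CPM on days 3, 7 and 14, a ratio of 2.75 on day 7 (1.47 to 5.61). All comparisons of a class share their reference library.

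Other ligands and receptors of the pathway were counted as a fixed list of 12. In fibroblast-like cells, 4, 5 and 3 of 9 tested were higher than on day 0 on days 3, 7 and 14, and 3, 1 and 0 were lower, beside 8.66%, 10.1% and 8.81% of all genes higher and 11.0%, 8.42% and 4.72% lower. The median log2 ratios were 0.62, 1.16 and 0.68 against -0.12, -0.06 and -0.02 over all genes. The semaphorin and Vegfc co-receptor Nrp2 was higher on each day, at 6.58 (2.08 to 33.4), 19.6 (6.54 to 96.1) and 7.50 (2.48 to 37.0) times its 1.36 CPM of day 0, which were 3 UMIs. Ccbe1, which helps to process Vegfc, stood at 17.3 CPM on day 0 and 57.3, 38.5 and 48.5 after it, and Plxnd1, a semaphorin receptor, at 3.64 CPM and 10.2, 16.3 and 10.4. Placental growth factor, Pgf, a ligand of Flt1, stood at 3.64, 8.47 and 11.2 CPM on days 0, 3 and 7. Angpt4 had 38 UMIs on day 0 and none on day 3, at least 23.1-fold lower, and 10 on day 7, and the guidance ligand Sema3c was at 0.299 times day 0 on day 3 (0.236 to 0.378). Ptprb, a phosphatase that acts on Tek, stood at 12.7, 5.48, 66.2 and 20.3 CPM in fibroblast-like cells on the 4 days, the third of these 5.21 times the first (3.53 to 7.96). In endothelial-like cells of day 7 over day 3, 3 of 6 were higher, Sema3f (2.34, 1.39 to 4.21), Ptprb (2.07, 1.61 to 2.71) and Flt4 (26 UMIs against 0, at least 2.30-fold higher), and Plxna1 was lower (0.432, 0.166 to 1.20), beside 16.2% of all genes higher and 8.12% lower, whereas none of 3 was called on day 14. The medians were 1.01 and 0.76 against 0.09 and -0.49 over all genes. Tie1, the partner of Tek, stood at 206, 405 and 300.3 CPM on days 3, 7 and 14. In smooth muscle-like cells 0, 1 and 1 of 8, 7 and 4 were higher and 1, 1 and 0 lower, near the shares over all genes (12.3%, 13.4% and 10.7% higher, 16.8%, 15.0% and 11.2% lower), with Sema3c at 0.187 times day 0 on day 3 (0.113 to 0.331), and in monocyte/macrophage-like cells 0 of 4 were higher on either day and Pgf was lower on day 14 (0.156, 0.00379 to 0.967). There 5.98% and 5.94% of all genes were higher and 4.32% and 9.73% lower on days 7 and 14, and the medians were -0.16 and -0.28 against -0.12 and -0.15.

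Genes that endothelial cells are known to switch on in response to VEGF or in sprouting tip cells, 10 in all, did not move as 1 group in endothelial-like cells. On day 7 over day 3, 3 of 6 tested were higher, the early response gene Egr3 (67 UMIs against 0, at least 5.93-fold), Dusp5 (6.37, 1.04 to 262) and the Notch ligand Dll4 (4.34, 1.40 to 21.8). In the same cells the tip cell gene Apln went from 130.5 to 8.0 CPM (0.0613, 0.0206 to 0.152) and the calcineurin regulator Rcan1 from 216 to 92 CPM (0.426, 0.287 to 0.639), and the median log2 ratio of the 6 was 1.22 against 0.09 over all genes. These counts stood beside 16.2% of all genes higher and 8.12% lower. On day 14, Rcan1 was higher (5.96, 3.97 to 9.04) and Apln lower, of 3 tested, beside 11.8% and 33.1% of all genes, with a median of -0.71 against -0.49. Outside the endothelial-like class, 3, 3 and 2 of 4 were higher in fibroblast-like cells and 3, 2 and 0 of 5, 5 and 4 in smooth muscle-like cells, with none lower. The shares of all genes higher were 8.66%, 10.1% and 8.81% in the former and 12.3%, 13.4% and 10.7% in the latter. In fibroblast-like cells these were Egr3, from 1 UMI on day 0 to 42, 40 and 103 UMIs, Rcan1 (2.90, 3.63 and 2.32 times day 0), Apln on day 3 (at least 4.57-fold) and Esm1 on day 7 (9.31, 3.03 to 46.4). In smooth muscle-like cells Rcan1 was at 4.64 (1.27 to 38.4) and 4.59 (1.26 to 38.1) times day 0 on days 3 and 7. In monocyte/macrophage-like cells 4 of 5 were higher on day 7, among them Egr3 (3.97, 2.30 to 7.33) and the chemokine receptor Cxcr4 (2.67, 2.38 to 2.99), and 3 of 4 on day 14, beside 5.98% and 5.94% of all genes (medians of 1.25 and 1.91 against -0.12 and -0.15).

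A list of 12 hypoxia response genes was also mixed in direction, with medians of 0.07, -0.37 and -0.33 in fibroblast-like cells and 0.43, 0.83 and 0.24 in smooth muscle-like cells on days 3, 7 and 14. They were 0.62 and 0.16 in endothelial-like and -0.28 and -0.71 in monocyte/macrophage-like cells on days 7 and 14, and the medians over all genes are those given above. In fibroblast-like cells 3 of 9 were higher on day 3, the glycolytic genes Ldha (2.86, 2.56 to 3.21) and Pgk1 (2.25, 1.90 to 2.66) with Pdk1 (2.33, 1.06 to 5.83), and 2 were lower, Bnip3 (0.473, 0.338 to 0.661) and Adm (0.495, 0.393 to 0.622). On day 7, 1 was higher, Slc2a1 (2.37, 1.23 to 5.01), and 2 lower, Adm (0.228, 0.172 to 0.30) and Bnip3 (0.331, 0.231 to 0.472), and on day 14 none of 9 was called, beside 8.66%, 10.1% and 8.81% of all genes higher and 11.0%, 8.42% and 4.72% lower. In smooth muscle-like cells 3, 4 and 1 of 9, 9 and 8 were higher (12.3%, 13.4% and 10.7% of all genes), with Ldha at 5.32 (2.69 to 12.3) and 5.25 (2.66 to 12.2) times day 0 on days 3 and 7, and 1 was lower on each day (16.8%, 15.0% and 11.2%), Adm, at 0.0901 (0.0456 to 0.194), 0.0728 (0.0335 to 0.167) and 0.174 (0.0829 to 0.389). In endothelial-like cells of day 7 over day 3, 3 of 6 were higher, Slc2a1 (5.05, 0.802 to 209.6), Ndrg1 (3.27, 1.72 to 6.98) and P4ha1 (2.39, 1.03 to 6.8), and Pgk1 was lower (0.363, 0.281 to 0.471), and of 4 on day 14, Ndrg1 was higher and Pgk1 lower, beside 16.2% and 11.8% of all genes higher and 8.12% and 33.1% lower. In monocyte/macrophage-like cells, 0 and 1 of 10 were higher on days 7 and 14 (5.98% and 5.94% of all genes) and 1 and 2 lower (4.32% and 9.73%), among them Ankrd37 at 0.489 (0.322 to 0.740) and 0.265 (0.0695 to 0.719) times day 3.

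The share of each gene's UMIs by class shows where most of the transcript was counted in a library. It follows the number and depth of the cells as well as their level. With each cell thinned to 1000 UMIs, 60 of 83 shares left their counting interval, and without cells of over 30000 UMIs 52 of 84 did. Of the 69 Vegfa UMIs of day 0, fibroblast-like cells gave 89.9% (80.2 to 95.8), an interval that holds their 84.3% of all UMIs. Monocyte/macrophage-like cells gave 38.5% of 663 on day 3 (34.7 to 42.3) with 26.3% of all UMIs, and 51.6% of 1559 on day 7 (49.1 to 54.1) with 33.4%. On day 14 fibroblast-like cells gave 81.5% of 482 (77.8 to 84.9) with 67.6% of all UMIs. Neutrophil-like cells gave 19.2% on day 3 with 3.71% of all UMIs. Thinned, they gave 60.5% and monocyte/macrophage-like cells 29.6%, and without cells of over 30000 UMIs 30.0% and 59.6%. Of the Angpt2 UMIs, fibroblast-like cells gave 89.3% of 28 on day 0 (71.8 to 97.7) and 83.1% of 538 on day 14 (79.6 to 86.2), with 84.3% and 67.6% of all UMIs. Smooth muscle-like cells gave 71.6% on day 3 (65.0 to 77.5) and 51.0% on day 7 (45.1 to 56.9), with 23.0% and 9.75% of all UMIs. Without cells of over 30000 UMIs the smooth muscle-like shares of Angpt2 were 51.9% and 30.4%. For Tek, fibroblast-like cells gave 78.8% of 33 on day 0 (61.1 to 91.0) and 92.2% of 218 on day 14 (87.8 to 95.4), with 84.3% and 67.6% of all UMIs. Endothelial-like cells gave 71.4% on day 3 (47.8 to 88.7) and 82.4% on day 7 (75.6 to 88.0), with 1.10% and 2.84% of all UMIs.

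**Figure D5:**
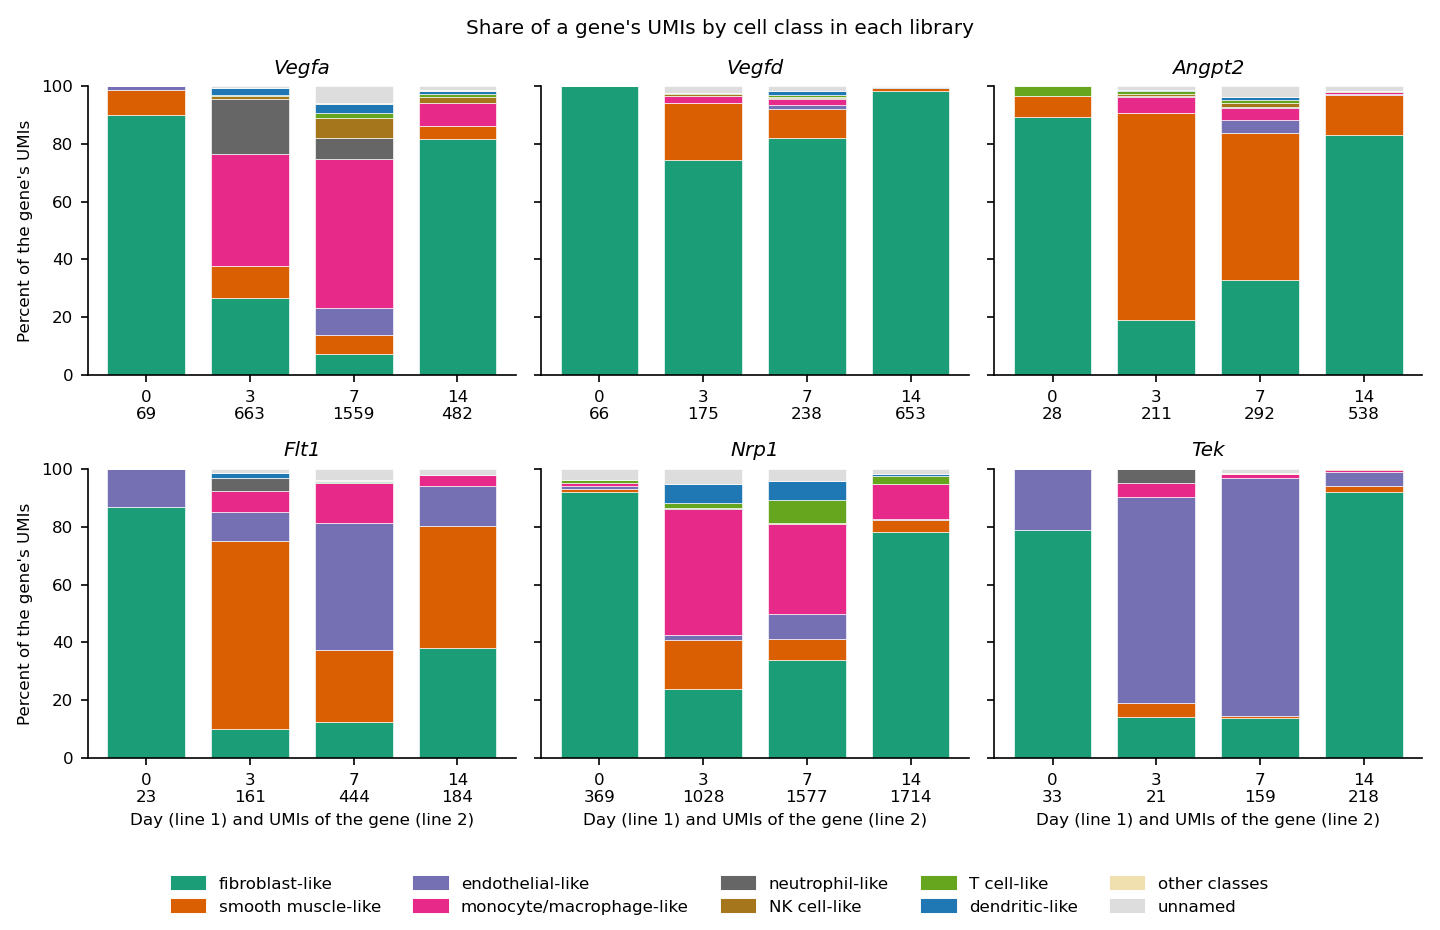
Percent of the UMIs of 6 members (vertical axis) that each cell class gave in each library (horizontal axis, with the number of UMIs of the gene under each day). For Vegfa the largest part is fibroblast-like on days 0 and 14 (89.9% and 81.5%) and monocyte/macrophage-like on days 3 and 7 (38.5% and 51.6%).

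The genes most like each member were taken by Pearson's r of log2(CPM + 10) over 25 sums of a class in a library, among 11460 genes. These sums share libraries and depth, and r is given as a description. Tek was most like Slc9a3r2 (r = 0.96), Edn1 and Ecscr, and Flt1 like Cdh13 (0.95), Sncg and Tspan9, while Kdr was most like Trpv4 (0.89). Vegfd was most like the endothelin receptor Ednra (0.98), Sdk1 and Ism1, and Angpt2 like Tbx15 (0.96), Slc2a13 and Cacna2d1. Vegfb was most like Atraid (0.90), Vegfc like Gm14296 (0.90), Nrp1 like Apoo (0.86) and Angpt1 like Atp1b1 (0.84). Vegfa had the weakest nearest gene of the 10, Litaf (0.75).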

How the data were processed

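The authors deposited UMI counts for every gene and barcode, not normalized, made with Cell Ranger (3.0.2 per the file headers). The labels name a human build for mouse, so no coordinates were taken from the files. Barcodes with under 200 genes or over 20% mitochondrial UMIs were removed, as were 214 shallow copies of barcodes shared between libraries and the cells of highest Scrublet score (0.8% per 1000 barcodes, 106 marked in all), since its own threshold marked 17. Counts scaled to 10000 per cell (scanpy 1.11.5), 2000 variable genes and 30 components entered Leiden clustering at resolution 1 (leidenalg 0.10.2). The 34 clusters gave 10 classes by fixed markers, under a naming rule made stricter after seeing the data. Class names were rebuilt here and may differ from those of the study. Counts were summed per class and library. Intervals are exact Poisson (levels), exact binomial (shares) and conditional binomial (ratios, scipy 1.17.1). The ratio intervals were checked on simulated Poisson counts, the model that they assume. That check could not show how they hold where many UMIs come from 1 cell. With 1 library per day there was no test. For each list and comparison, up to 4 genes with the largest ratio among those called were to be named. This was not done throughout. In smooth muscle-like cells, for example, Plxnd1 was higher on days 7 and 14 and is not named. The value of a gene outside this rule was chosen after it was seen. The members and lists were chosen with earlier results of these data known. The alternatives tried were another scaling, UMI minimum, added CPM, clustering, resolution, doublet, mitochondrial or depth limit.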

Additional observations from a re-analysis of the deposited data

Results flagged for a closer look

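Vegfa differed from day 0 in opposite directions on days 3 and 14 in 2 classes. In fibroblast-like cells it was 1.56 times day 0 on day 3 and 1.58 times on day 14, whereas in smooth muscle-like cells it was 0.287 and 0.269 times day 0 on these days, against 6 UMIs in 2 of 11 cells. On day 7 they were at 0.863 (0.627 to 1.20) and 0.648 (0.288 to 1.81) times day 0, neither beyond counting error. Nrp1 of day 7 over day 3 was 2.01 in endothelial-like cells and 0.588 in monocyte/macrophage-like cells. With 1 library per day, these differences between classes were not tested.

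Cells that received no class name also held members above the limit that a count of 0 allows. Nrp1 stood in them at 62.6 CPM on day 3, 47.3 on day 7 and 98.8 on day 14, Vegfa at 65.6 CPM on day 7, and Vegfb at 28.5 CPM on day 3 and 21.9 on day 7.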

How the results depend on the processing

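No paired analysis was possible because each day was 1 library with no replicate number, and no library could be left out for the same reason. The counts of members past 2-fold (higher and lower together) were compared with 12 alternatives, 1 of them (shared barcodes kept) chosen after seeing the data. The share of all genes called under each alternative is not given here, so these counts show only whether a call depended on the setting. They are not read as many or few. With 10 CPM added, the count for fibroblast-like cells went from 5 to 3 on day 3 and from 2 to 0 on day 7, for smooth muscle-like cells to 2 on days 3 and 7, and for monocyte/macrophage-like cells to 0 on days 7 and 14. With at least 50 UMIs it was 3 and 1 in fibroblast-like cells on days 3 and 7, 1 in smooth muscle-like cells on day 14, and 0 in endothelial-like cells on day 14, where no member was left to count. With each library clustered on its own, which left the fibroblast-like name to 30 of the 206 cells of day 0, it was 5 and 4 in fibroblast-like cells on days 7 and 14, 6 in smooth muscle-like cells on days 3, 7 and 14, 1 in endothelial-like cells on day 14 and 4 in monocyte/macrophage-like cells on day 14. Under that clustering 69 of these 206 cells were named smooth muscle-like and 107 were unnamed. The 6 endothelial-like cells of day 0 became 2 smooth muscle-like and 4 unnamed cells. Angpt1 of fibroblast-like cells reversed to log2 ratios of 1.43 on day 3 and 1.67 on day 7. With CPM averaged over cells it was 4 in fibroblast-like cells on day 7, and 2 in smooth muscle-like cells on days 3 and 7 and in monocyte/macrophage-like cells on day 14. A mitochondrial limit of 10% gave 2 in monocyte/macrophage-like cells on day 7 and in smooth muscle-like cells on day 3, no UMI minimum gave 2 and 3 in monocyte/macrophage-like cells on days 7 and 14, and resolution 0.5 gave 2 in smooth muscle-like cells on days 3 and 7. Keeping shared barcodes gave 3 and 2 in smooth muscle-like cells on days 3 and 7 and 2 in monocyte/macrophage-like cells on day 7, and size factors gave 3 in smooth muscle-like cells on day 3. Without cells of over 30000 UMIs it was 1 in endothelial-like cells on day 14 and 2 in smooth muscle-like cells on day 7, and Flt1 of fibroblast-like cells on day 3 reversed to a log2 ratio of 0.89. The cause of these changes was not tested. Of 690 log2 ratios under the alternatives, 3 reversed, 59 left the counting interval of the ratio and 628 did neither, and 80 of 504 levels and 139 of 335 shares left theirs. Among these, 60 of 83 shares did so with cells thinned to 1000 UMIs, and 52 of 84 shares and 27 of 84 levels without cells of over 30000 UMIs. The few cells of day 0, 11 smooth muscle-like and 6 endothelial-like, limit what can be read from it.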
